A study of Mus musculus with 6 samples.

Results

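The 4 genes described here encode the RUNX transcription factors and their common partner: Runx1, Runx2 and Runx3, and Cbfb. They were taken by name and not by a measured value, though earlier results of these data were known when they were chosen. A locus was the annotated gene body, the 50 kb upstream of the most upstream protein-coding transcription start site (TSS), and 1000 bp on either side of every protein-coding TSS (GENCODE annotation, mouse genome build mm10). Peaks of the 6 libraries that overlapped by at least 1 bp were joined into regions. The 4 loci held 52 of the 63840 regions in all, with 22 at Runx1, 13 at Runx2, 9 at Runx3 and 8 at Cbfb.

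All 6 libraries came from cultured skeletal stem and progenitor cells (SSPCs) of C57BL/6 mice, which were grown from flushed marrow of tibiae and femora in plain serum-containing medium and used at passage 1 with no treatment. The assay, ATAC-seq, lets a transposase cut DNA that is not packed away, and a peak marks a place where many cuts fall. There were 3 young and 3 middle-aged libraries, and the labels state no age in months, no sex and no genotype other than the strain. The cells were enriched only by plating and growth, and whether each library came from 1 mouse is not stated, so the p-values below measure the spread between libraries. The question set by the design is whether accessibility at these loci differed with age.

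RUNX proteins bind DNA through the Runt domain, and CBFβ, which does not touch DNA itself, binds that domain and strengthens its hold on the DNA and its stability. RUNX2 is the master regulator of osteoblast formation, RUNX1 is required for blood stem cells to form and is also present in skeletal progenitors, and RUNX3 acts in T cells, neurons and maturing chondrocytes. Each Runx gene has a distal promoter, P1, and a proximal promoter, P2, which begin proteins that differ at the N terminus. At Runx2, P1 is classically linked to mature osteoblasts and P2 to mesenchymal progenitors and other cells.

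The lists held 35953, 43941 and 27628 peaks in young 1 to 3 and 46364, 46745 and 48344 in middle-aged 1 to 3. Young 3 stood apart, with the shortest list and the lowest background, 1.65 extended reads per base against 2.40 to 3.75 in the other libraries, so promoter ranks and peak counts are also given without it. Among marker genes, 7 to 8 of 8 macrophage and myeloid genes had a called start in every library, with ranks of 52.7 to 67.5 for Ptprc, whereas none of the 5 T and NK cell genes did. Of 7 stromal progenitor genes, 2 to 5 had a called start in the young libraries and 4 to 5 in the middle-aged ones. Kitl and Ebf3 were called in all 6 libraries, and Lepr and Prrx1 in none. Of 7 osteoblast and chondrocyte genes, 0 to 1 were called in the young and 1 to 2 in the middle-aged libraries, and Bglap, Ibsp and Sp7 in none. B cell starts were called for 0 of 3 genes in the young libraries and 1 of 3 (Pax5) in the middle-aged ones, erythroid and megakaryocyte starts for 1 to 2 of 4 genes in either group, and endothelial starts for 2 of 5 genes in the young and 2 to 4 in the middle-aged libraries. The endothelial gene Cdh5 ranked 85.4 to 89.2 in all 6 libraries, and Emcn was called in none. The erythroid gene Klf1 ranked 71.6 to 86.4 in the 4 libraries that called it, and Gata1 and Itga2b were called in none. Kitl ranked 59.6 to 76.9. Of all 21853 protein-coding genes, 48.4% had a called start in all 6 libraries and 38.5% in none. The respective counts were 7 and 0 of 8 myeloid, 2 and 2 of 7 stromal, and 0 and 5 of 7 osteoblast and chondrocyte genes. They were 1 and 1 of 5 endothelial, 0 and 2 of 4 erythroid and megakaryocyte, and 0 and 2 of 3 B cell genes. The label was thus matched only in part by stromal and bone markers, beside most myeloid genes and some endothelial and erythroid ones. Lists this short do not settle which cells were present. The part of other cells in the results below was not tested.

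The annotated starts of the 4 genes fell into 7 start clusters, one for Cbfb and a P1 and a P2 for each Runx gene, told apart by the annotated start of the coding sequence. The 250 bases directly upstream of the first start of 6 of the clusters are printed below because the results turn on which of these promoters was open. They were read from mm10 in the direction of transcription and lie at chr16:92826150-92826399 (Runx1 P1, minus strand), chr16:92697329-92697578 (Runx1 P2, minus), chr17:44814798-44815047 (Runx2 P1, minus), chr4:135120402-135120651 (Runx3 P1, plus), chr4:135152246-135152495 (Runx3 P2, plus) and chr8:105170424-105170673 (Cbfb, plus). Capitals mark the RUNX motif, TGTGGT or TGCGGT on either strand.
Runx1 P1: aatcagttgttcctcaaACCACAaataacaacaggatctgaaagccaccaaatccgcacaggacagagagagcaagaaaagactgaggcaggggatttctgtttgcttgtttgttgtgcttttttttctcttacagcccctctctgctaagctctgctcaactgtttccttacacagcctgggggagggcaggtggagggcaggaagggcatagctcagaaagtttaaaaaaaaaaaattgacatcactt
Runx1 P2: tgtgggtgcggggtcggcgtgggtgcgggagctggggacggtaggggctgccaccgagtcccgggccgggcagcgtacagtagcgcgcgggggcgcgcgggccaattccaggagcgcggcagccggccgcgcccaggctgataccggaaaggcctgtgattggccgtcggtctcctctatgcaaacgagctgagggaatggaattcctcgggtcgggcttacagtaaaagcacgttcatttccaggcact
Runx2 P1: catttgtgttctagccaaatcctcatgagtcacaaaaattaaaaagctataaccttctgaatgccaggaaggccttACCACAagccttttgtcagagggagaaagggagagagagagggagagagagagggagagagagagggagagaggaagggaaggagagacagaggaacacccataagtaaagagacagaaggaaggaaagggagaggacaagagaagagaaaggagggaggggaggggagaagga
Runx3 P1: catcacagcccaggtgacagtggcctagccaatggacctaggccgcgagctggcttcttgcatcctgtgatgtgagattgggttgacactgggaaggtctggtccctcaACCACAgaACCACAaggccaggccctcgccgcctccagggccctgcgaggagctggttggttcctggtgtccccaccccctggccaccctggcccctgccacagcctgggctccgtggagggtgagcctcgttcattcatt
Runx3 P2: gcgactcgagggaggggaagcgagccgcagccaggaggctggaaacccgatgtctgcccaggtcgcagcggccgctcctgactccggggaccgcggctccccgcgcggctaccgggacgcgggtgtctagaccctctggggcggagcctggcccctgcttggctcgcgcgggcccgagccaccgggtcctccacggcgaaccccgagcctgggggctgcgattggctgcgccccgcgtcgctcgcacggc
Cbfb: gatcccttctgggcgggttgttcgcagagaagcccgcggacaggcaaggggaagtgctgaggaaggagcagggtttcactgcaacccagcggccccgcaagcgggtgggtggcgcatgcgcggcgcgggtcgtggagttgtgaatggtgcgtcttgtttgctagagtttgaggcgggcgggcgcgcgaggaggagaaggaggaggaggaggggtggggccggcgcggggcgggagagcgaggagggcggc

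The 3 distal promoters each held the RUNX motif, with 1 copy at Runx1 P1, 1 at Runx2 P1 and 2 at Runx3 P1, and Runx1 P2, Runx3 P2 and the Cbfb promoter held none. For comparison, 17.8% of the same windows at 21848 protein-coding genes held it. A match is a description of the letters and not a shown binding site. These promoters also differed in CpG content. The ratio of observed to expected CpG was 0.993 at Runx1 P2, 0.914 at Runx3 P2 and 1.00 at Cbfb, but 0.0798 at Runx1 P1, 0.278 at Runx3 P1 and 0 at Runx2 P1, where these 250 bases hold no CpG. The median over all genes was 0.498. The CCAAT box bound by NFY occurred in 2 copies each at Runx1 P2 and Runx3 P1 and in 1 copy at Runx3 P2, and was present in 36.1% of the windows of all genes.

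Of the 7 start clusters, 5 were called in all 6 libraries, 1 in none and 1 in a single library. Counted by gene and not by start cluster, Runx1, Runx2, Runx3 and Cbfb each had a called start in all 6 libraries. Of all 21853 protein-coding genes, 48.4% had a called start in all 6 libraries and 38.5% in none. These shares count genes, so they give no base rate for the 7 start clusters, and a share over all start clusters is not given here. Strength is given as a percentile rank, the place of the highest peak of a start cluster among all peaks of its library by −log10 q, with 100 for the strongest. Fold enrichment is the deposited ratio of reads at the summit to the local background.

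**Figure D1:**
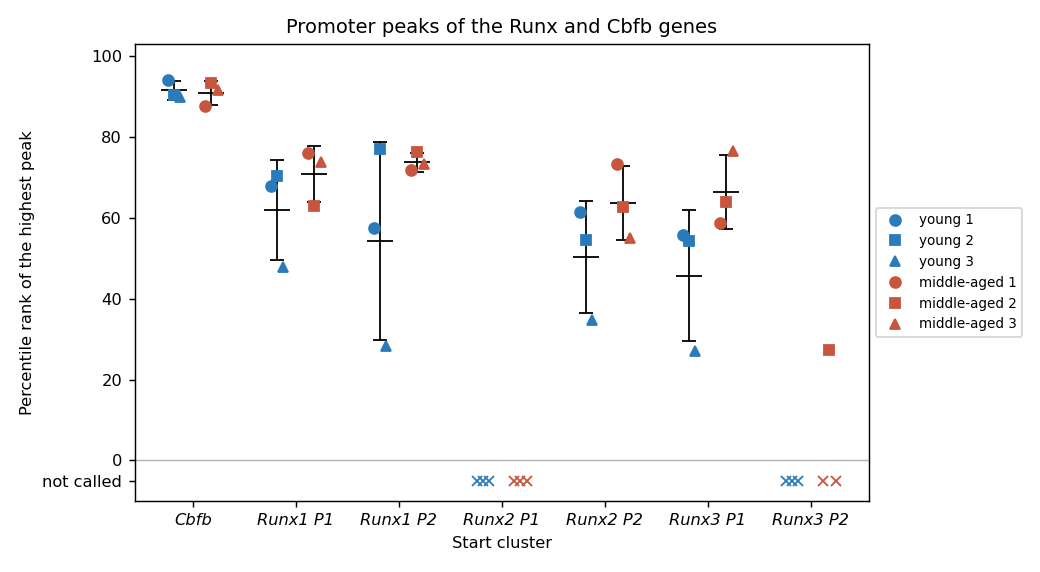
Percentile rank of the highest peak at each start cluster (y axis; crosses, not called) for the 3 young (blue) and 3 middle-aged (red) libraries, with the group mean and SD in black. Runx2 P1 was called in no library, Runx3 P2 in 1, and Cbfb lay above 87 in all 6.

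Cbfb, the gene of the non-DNA-binding partner, had the strongest promoter of the 4 genes. Its peak ranked 94.2, 90.4 and 89.9 in young 1 to 3 and 87.7, 93.3 and 91.6 in middle-aged 1 to 3, with its summit at −147 to −91 bp from the first start. Its fold enrichment was 11.5 ± 0.557 in the young and 11.5 ± 1.48 in the middle-aged libraries (SD, n = 3 each). The groups overlapped on both scales (p = 0.9 for the ranks by the exact two-sided permutation test, which is used for all group comparisons of single values here). The rank difference was −0.645 points, and −1.44 without young 3 (permutation p = 0.7).

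Both Runx1 promoters were open in every library. The distal P1 peak ranked 67.8, 70.3 and 47.7 in the young and 75.9, 62.8 and 73.8 in the middle-aged libraries, and its summit lay 33 to 132 bp downstream of the first start, in an exon. The proximal P2 peak ranked 57.5, 77.1 and 28.2 in the young and 71.7, 76.3 and 73.3 in the middle-aged libraries, with its summit at −153 to −27 bp. The lowest rank of each was in young 3, and with all 6 libraries the groups overlapped at both promoters (p = 0.4 each in the permutation test). The group difference was 8.88 rank points at P1 and 19.5 at P2, and without young 3 it was 1.76 and 6.47. Leaving out another library could also part the groups, which did not overlap at P2 without young 2 (30.9 points, permutation p = 0.1) or at P1 without middle-aged 2 (12.9 points, permutation p = 0.3). P1 ranked above P2 in 4 of 6 libraries, so neither promoter of Runx1 was set apart as the stronger one. Runx1 was one of the 3.36% of 6434 protein-coding genes with at least 2 start clusters in which every cluster was called in all 6 libraries.

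At Runx2 the distal and proximal promoters were split. P1, whose annotated starts run from 44814226 to 44814797 on chromosome 17, had no called peak in any young or middle-aged library. The nearest peak lay 35.4 kb from its window in young 3 and 23.9 to 24.0 kb in the other 5 libraries, on the downstream side, and the 50 kb upstream of P1 held no called region at all. The weakest summits that were called in these libraries held 8 to 13 extended reads, so opening below that height was not detectable at this depth. P2 was called in all 6 libraries, at ranks of 61.5, 54.6 and 34.8 in the young and 73.3, 62.7 and 55.0 in the middle-aged libraries. Its summit lay 146 to 437 bp downstream of the first start, in an exon and near the start of the antisense transcript Runx2os1, whose reads cannot be told apart from its own in ATAC-seq. The groups overlapped and differed by 13.3 rank points (permutation p = 0.2). The difference was 5.58 points without young 3, 8.52 without middle-aged 1 and 0.229 with equally long lists. Without young 1 (18.9 points) or without middle-aged 3 (17.7 points) the groups did not overlap (permutation p = 0.2 each). An open cluster beside one that was never called was common, in 47.4% of the 6434 genes with at least 2 start clusters.

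Runx3 was open at its distal promoter. The P1 peak ranked 55.8, 54.3 and 27.0 in the young and 58.7, 63.8 and 76.6 in the middle-aged libraries. Its summit lay at −191 to −99 bp from the start, in a region within 1000 bp of the start of the non-coding gene Gm16225. All 3 middle-aged libraries ranked above all 3 young ones, by 20.6 points on average, at the lowest p that 3 against 3 can reach (permutation p = 0.1). This pattern was frequent, since 30.6% of the 10569 genes with a called start in all 6 libraries showed it and 0.274% showed the reverse. The rank groups still did not overlap without young 3 (11.3 points, permutation p = 0.2), but did so when the lists were made equally long (10.5 points, permutation p = 0.5). The CpG-rich P2 was called only in middle-aged 2, where 2 weak peaks lay in its window, the higher at rank 27.2 with 19 extended reads at its summit.

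In bulk libraries of this kind, fewer cells with an open site and less opening in each cell cannot be told apart. The order of the 5 always-called start clusters by mean rank was Cbfb (91.2), Runx1 P1 (66.4), Runx1 P2 (64.0), Runx2 P2 (56.96) and Runx3 P1 (56.0). Cbfb ranked above each of the others in 6 of 6 libraries, by 24.8 ± 10.7 points over Runx1 P1 (SD over 6 libraries). The remaining neighbours did not differ beyond their spread, with differences of 2.40 ± 11.8, 7.06 ± 12.6 and 0.926 ± 12.4 points. Among non-neighbours, Runx1 P1 ranked above Runx2 P2 in 6 of 6 libraries, by 9.46 ± 7.51 points. All of these ranks are among all peaks of a library, including those far from any start. Among only the highest start peaks of the protein-coding genes called in the same library, the mean percentiles were lower. They were 70.2 for Cbfb, 28.7 for Runx1 P1, 28.0 for Runx1 P2, 21.6 for Runx2 P2 and 21.2 for Runx3 P1.

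**Figure D2:**
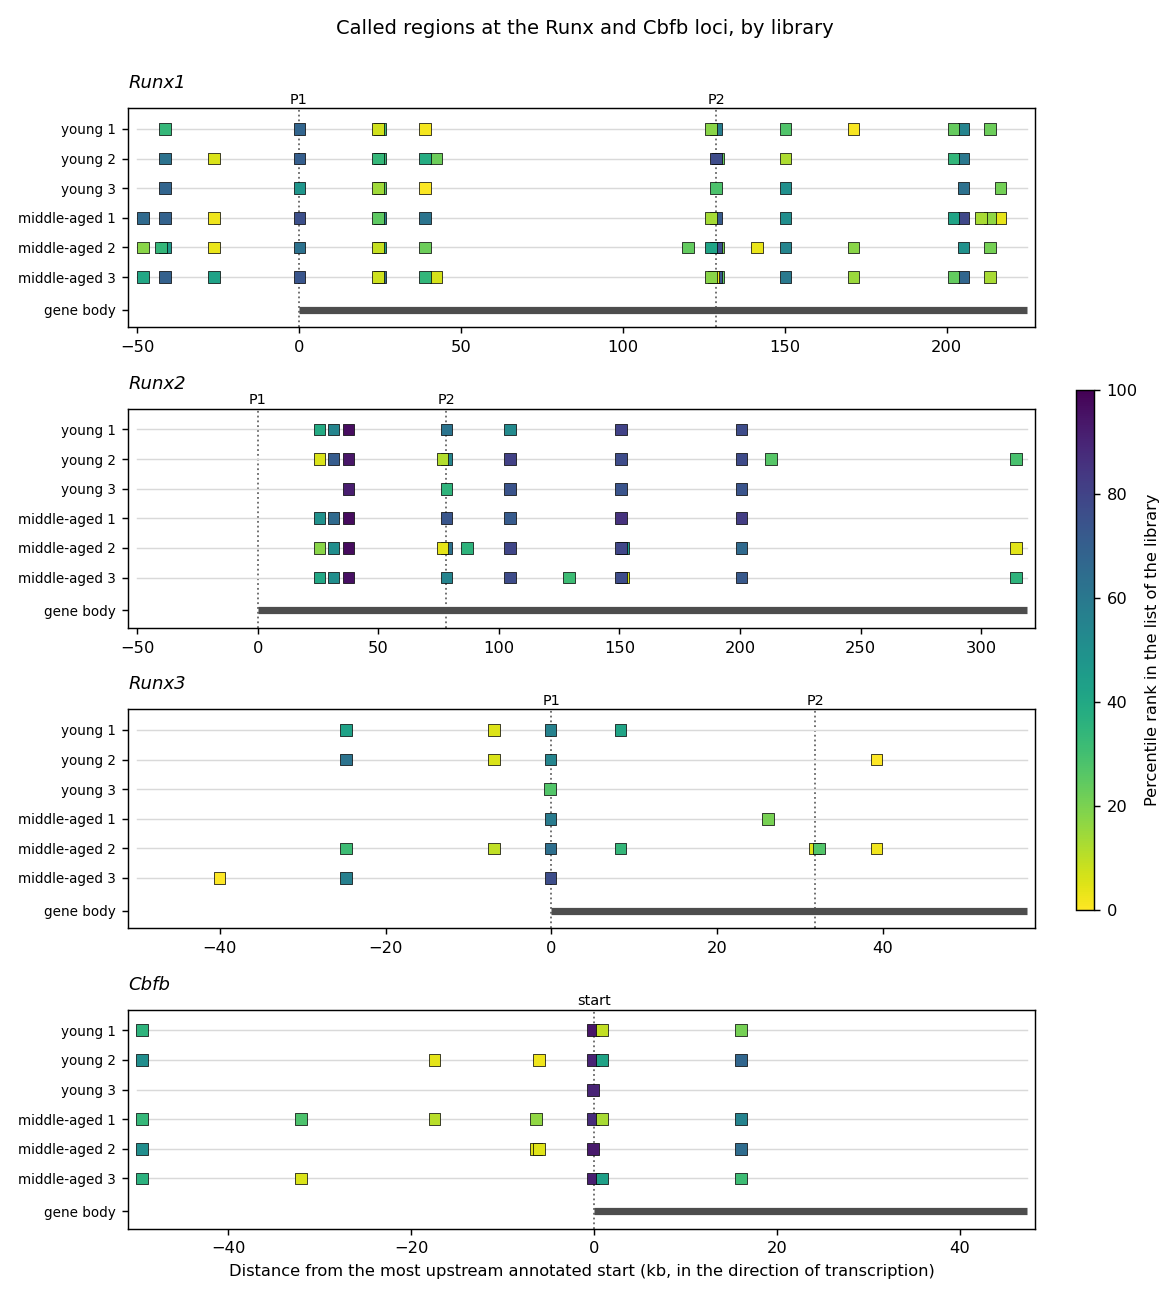
Called regions at the 4 loci in each library, by distance from the most upstream annotated start (x axis, kb, in the direction of transcription); squares are coloured by percentile rank, dotted lines mark the start clusters and the grey bar the gene body. At Runx2 no square lies at P1 or upstream of it, and Runx1 has squares at P1, at P2 and 41.3 kb upstream of P1 in all 6 libraries.

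Beyond the start windows, all 10 regions called in every library lay at Runx1, with 6, and Runx2, with 4. Of these 4, 1 is the start of another protein-coding gene and 1 lies within 1000 bp of the start of the antisense gene Runx2os2. With the promoters, 15 of the 52 regions were called in all 6 libraries, 8 at Runx1, 5 at Runx2 and 1 each at Runx3 and Cbfb, where the 1 region was the promoter itself. Of the 52, 28.8% were called in all 6 libraries and 23.1% in a single one, beside 35.1% and 23.0% of all regions. Per 100 kb the loci held 8.01 regions at Runx1, 3.52 at Runx2, 8.38 at Runx3 and 8.22 at Cbfb. The Runx2 locus, the longest at 369 kb, was thus the sparsest.

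The strongest peak of the Runx2 locus was not at a Runx2 promoter. It covered chr17:44776791-44777835, between P1 and P2, and ranked 96.7, 94.3 and 92.2 in the young and 97.1, 97.2 and 95.8 in the middle-aged libraries. This region is the start of Supt3, a neighbouring gene for a subunit of the SAGA coactivator complex that begins inside the first Runx2 intron and is read the opposite way, so it cannot be assigned to Runx2. Next came intronic regions downstream of P2. The one at chr17:44663797-44664388, 151 kb from the first start, ranked 80.4, 77.2 and 73.9 in the young and 85.7, 79.3 and 77.1 in the middle-aged libraries. The one at chr17:44613837-44614469 ranked 77.0, 77.4 and 74.1 in the young and 82.4, 65.7 and 72.4 in the middle-aged libraries. Another, within 1000 bp of the start of the antisense gene Runx2os2 (chr17:44709849-44710283), ranked between 52.4 and 80.8. In every library the first of these intronic regions ranked above Runx2 P2.

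The first intronic region and the one region called in middle-aged libraries only, described further on, are printed in the direction of the host gene. They are shown as the strongest Runx2 region away from any annotated start and as the sole age-restricted call. The first is the 300 bases around the summit, chr17:44663923-44664222, and the second the whole region, chr16:92874073-92874368. Capitals again mark the RUNX motif.
Runx2 intron: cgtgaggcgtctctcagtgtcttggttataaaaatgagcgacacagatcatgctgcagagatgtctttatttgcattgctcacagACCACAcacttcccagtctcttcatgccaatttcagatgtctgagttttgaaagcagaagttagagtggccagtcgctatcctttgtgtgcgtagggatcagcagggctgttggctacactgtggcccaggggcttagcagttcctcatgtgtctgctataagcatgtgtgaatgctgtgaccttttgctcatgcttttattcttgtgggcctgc
Runx1 upstream: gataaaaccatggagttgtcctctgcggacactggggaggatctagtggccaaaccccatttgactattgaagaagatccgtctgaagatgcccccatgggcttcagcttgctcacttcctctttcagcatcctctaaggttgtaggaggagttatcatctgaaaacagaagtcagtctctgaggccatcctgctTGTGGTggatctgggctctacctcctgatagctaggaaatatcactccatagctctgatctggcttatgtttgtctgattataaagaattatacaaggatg

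At Runx1, the strongest regions outside the start windows lay at chr16:92620611-92621080, in an intron 205 kb from P1, and at chr16:92867214-92867722, 41.3 kb upstream of P1 between genes. The intronic region ranked 54.9, 59.99 and 63.1 in the young and 78.4, 49.8 and 67.4 in the middle-aged libraries. The upstream region ranked 33.3, 62.1 and 67.8 in the young and 68.9, 46.4 and 69.3 in the middle-aged libraries. The groups overlapped at both regions (permutation p = 0.6 and p = 0.5). A pair of regions 25.1 and 24.4 kb inside P1, in the first intron, was also called in all 6 libraries. The former ranked 30.9, 33.3 and 27.3 in the young and 57.02, 43.2 and 65.8 in the middle-aged libraries, so that the groups did not overlap, and the latter ranked at most 33.6 in any library. In all, the ranks of 3 of the 15 constant regions lay higher in every middle-aged library than in every young one and those of 0 lay lower, which was close to the 24.3% and 0.495% of all 22403 such regions. The median rank difference over all of these was 6.74 points in favour of the middle-aged libraries, whose lists were longer.

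More peaks were called at the 4 loci in the middle-aged libraries, and so they were over the genome. There were 28, 32 and 18 peaks in young 1 to 3 and 33, 41 and 36 in middle-aged 1 to 3, or 26.0 ± 7.21 against 36.7 ± 4.04 (SD, n = 3 each), and the groups did not overlap (permutation p = 0.1). Per 10000 peaks of the list, the values were 7.195 ± 0.641 in the young and 7.78 ± 0.875 in the middle-aged libraries, and they overlapped (permutation p = 0.5). With lists shortened to the strongest peaks of each, to the same length of 27628 peaks the means were 18.3 and 18.7 (permutation p = 1). Without young 3 the means were 30.0 and 36.7 (permutation p = 0.2). With 20 kb upstream in place of 50 kb they were 23.3 and 30.7 (permutation p = 0.2), and the difference per 10000 peaks was 0.0155 in place of 0.583.

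Runx1 was the one locus at which the counts did not overlap. It held 12, 12 and 9 peaks in the young and 15, 17 and 17 in the middle-aged libraries, a ratio of 1.48 between the means of 11 ± 1.73 and 16.3 ± 1.15 (SD, n = 3 each; permutation p = 0.1). By the same rule, 9.43% of 17996 protein-coding loci with a peak had more in every middle-aged library than in every young one and 0.0778% had fewer. Among the 396 loci with a mean of at least 10 peaks a library, a bound chosen after the Runx1 counts were seen, 28.3% did. Relative to the lists the Runx1 counts were 3.11 ± 0.330 and 3.46 ± 0.206 per 10000 (permutation p = 0.3), and with equally long lists the means were 7 and 7.33 peaks. Without young 3 the means were 12 and 16.3 (permutation p = 0.1).

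**Figure D3:**
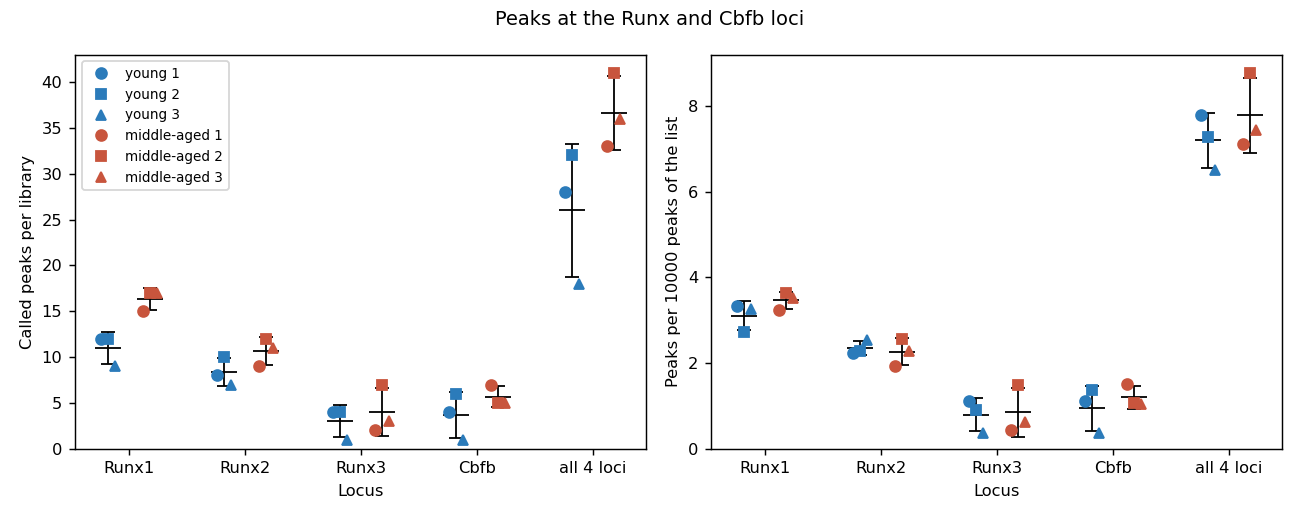
Called peaks at each locus per library (left, number; right, per 10000 peaks of the list), with the mean and SD of each group in black. The counts of Runx1 and of all 4 loci are higher in every middle-aged library, and all groups overlap on the right.

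With all 6 libraries, the other loci overlapped between the ages on both scales. Runx2 held 8, 10 and 7 peaks in the young and 9, 12 and 11 in the middle-aged libraries (permutation p = 0.2). Cbfb held 4, 6 and 1 in the young and 7, 5 and 5 in the middle-aged libraries (permutation p = 0.4). Runx3 held 4, 4 and 1 in the young and 2, 7 and 3 in the middle-aged libraries (permutation p = 0.8), and its direction turned with equally long lists, to 2 against 1.33 peaks. Young 3 had 1 peak each at Runx3 and Cbfb, in both cases the promoter. Without it the means were 9 and 10.7 at Runx2, 5 and 5.67 at Cbfb, and 4 and 4 at Runx3. The Runx3 difference was 2 peaks without middle-aged 1 and −0.5 without middle-aged 2, and at Cbfb the groups did not overlap without young 2 (2.5 and 5.67, permutation p = 0.1).

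Region by region, 25 of the 52 were called in more middle-aged than young libraries, 2 in more young ones and 25 in equally many. The shares of 48.1% and 3.85% stood beside 47.1% and 9.02% of all regions. One region met the criterion of a call in all 3 libraries of one age and none of the other. This was the intergenic region 48.1 kb upstream of Runx1 P1 printed above, with ranks of 65.7, 17.7 and 40.5 in middle-aged 1 to 3 and summits of 29, 15 and 21 extended reads. Over the genome 2.21% of regions were called in the middle-aged libraries only and 0.036% in the young only, and 0 of the 52 were young only. The call was lost with equally long lists, where 0 regions were left on either side. With 1 library left out and the same criterion on the rest, the middle-aged side held 3 regions without young 1, 1 without young 3 and 2 without any one of the others.

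The 15 constant regions were then compared by limma on log2 fold enrichment, centred on the median of each library and fitted over all 22403 regions called in all 6 libraries. None passed the threshold (Benjamini-Hochberg adjusted p under 0.05), with a lowest adjusted p of 0.628, and 0 had an unadjusted p under 0.05. Over the genome 1 region was called higher (0.00446%) and none lower, and 8.08% had an unadjusted p under 0.05. The log2 differences, middle-aged minus young, ran from −0.34 to 0.25 with a median of −0.03, against −0.02 over all regions. Of the 15, 7 were above 0, and 44.4% of all regions were. At the promoters the differences were −0.24 (SE 0.13) for Cbfb, −0.03 (SE 0.17) for Runx1 P1, 0.03 (SE 0.18) for Runx1 P2, 0.00 (SE 0.19) for Runx2 P2 and 0.13 (SE 0.17) for Runx3 P1. The lowest value, −0.34 (SE 0.17), belonged to the weaker of the paired Runx1 intronic regions, 24.4 kb inside P1, and the highest, 0.25 (SE 0.19), to the Runx1 intronic region 39.0 kb inside P1. Single libraries moved several of these values. With 1 library left out, the last was lowest without middle-aged 1 (0.052) and highest without young 2 (0.36). The difference at Runx3 P1 was 0.0022 without middle-aged 3 and at most 0.21, and that at Cbfb lay between −0.37 (without young 2) and −0.16 (without middle-aged 1). The lowest of these Cbfb values had an unadjusted limma p under 0.05 and an adjusted p of 0.389. Without centring, the median over all regions was 0.21 and 13 of the 15 were above 0, with 0 passing and 3 at an unadjusted p under 0.05.

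**Figure D4:**
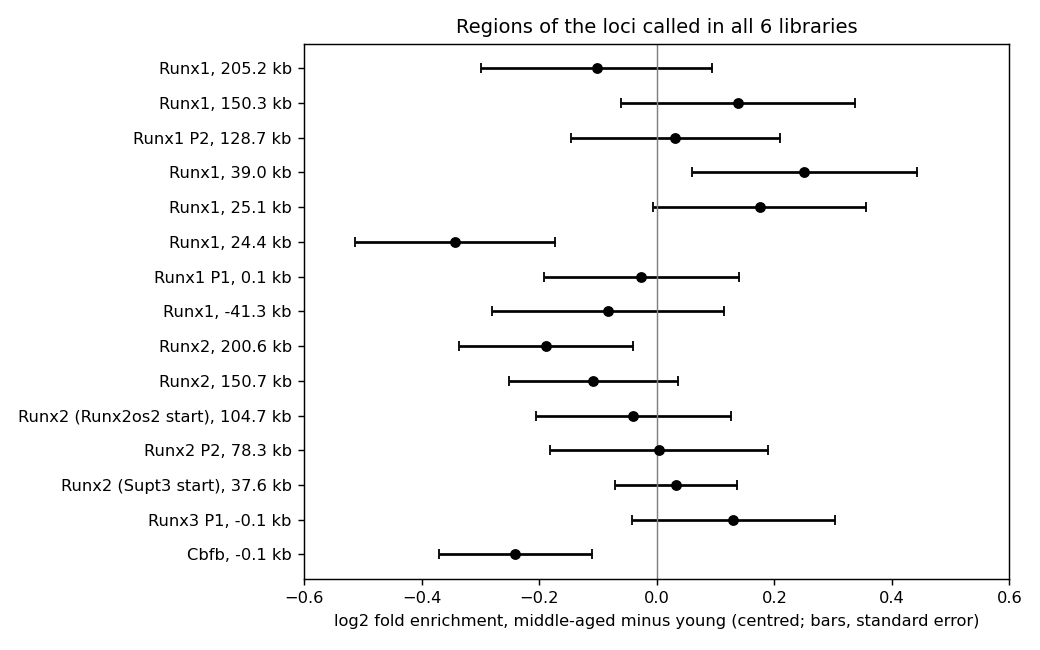
Difference in centred log2 fold enrichment, middle-aged minus young (x axis; bars, SE), for the 15 regions of the loci called in all 6 libraries, named by locus and distance from the first start in kb. The points lie between −0.34 and 0.25 on both sides of 0.

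In a window of 150 bases on either side of the summit, 23 of the 52 regions (44.2%) held the RUNX motif TGTGGT or TGCGGT on either strand, as did 32.3% of all 63840 regions. By locus, 11 of 22 regions did so at Runx1, 4 of 13 at Runx2, 5 of 9 at Runx3 and 3 of 8 at Cbfb. Of the start regions called in all 6 libraries, that at Runx1 P1 held 3 copies and that at Runx3 P1 2 copies, and those at Runx1 P2 and Cbfb none. A pair of less often called regions in the Runx1 P2 window held 2 copies and 1 copy. The AP-1 motif TGANTCA was present in 25.0% of the 52 regions and 19.1% of all regions, the ETS motif GGAAGT in 28.8% and 34.6%, and the TEAD motif GGAATG in 19.2% and 18.0%. The motif of RBPJ, the DNA-binding partner of Notch, GTGGGAA, was present in 15.4% (8 of 52) and 7.09%, and CCAAT in 23.1% and 32.0%. Among regions called in all 6 libraries, 1 of 15 at the loci (6.67%) and 6.34% over the genome held the RBPJ motif. The EBF palindrome was found in 0 of the 52 regions and in 1.06% of all regions. These are shares of letters in fixed windows, with no test.

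The genes listed as working with RUNX proteins were mostly open at their starts. This list and that of the targets below were chosen with earlier results of these data known. Their shares therefore describe the lists only. Of 30 partners and regulators, 25 had a called start in all 6 libraries and 2, Tle2 and Sp7, in none, beside 48.4% and 38.5% of all protein-coding genes. Tle1 and Tle4, genes of Groucho-type corepressors that RUNX proteins recruit, ranked at 99.4 to 99.96 and 99.5 to 99.8. Of the 25, none passed limma in either direction (adjusted p under 0.05) and 0 had an unadjusted p under 0.05, as 8.08% of all shared regions had. The largest log2 differences in favour of the middle-aged libraries were 0.30 (SE 0.15) at Wwtr1, which encodes the coactivator TAZ, 0.24 (SE 0.15) at Atf4 and 0.19 (SE 0.17) at Tle3. The largest in the other direction were −0.39 (SE 0.19) at Dlx5, a homeobox activator of Runx2, −0.17 (SE 0.09) at Tle4 and −0.17 (SE 0.12) at Smad5, a transducer of BMP signals.

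The starts of the listed RUNX targets, chosen in the same way, were mostly not called. Of 18 targets, 3 had a called start in all 6 libraries and 11 in none, set against the same 48.4% and 38.5% of all genes, with 4 to 6 called in the young and 5 to 6 in the middle-aged libraries. Those always called were Spp1, for the bone matrix protein osteopontin, Mmp13, for a collagenase, and Spi1, for the myeloid factor PU.1. Their log2 differences were 0.01 (SE 0.16), −0.13 (SE 0.15) and 0.12 (SE 0.18), and none of the 3 passed limma or had an unadjusted p under 0.05. The osteocalcin genes Bglap and Bglap2 and bone sialoprotein, Ibsp, were called in none, Col1a1 in 5 libraries at ranks of 1.10 to 46.3, Alpl in 2 middle-aged libraries only, and Csf1r, for the macrophage growth factor receptor, in 2 young libraries only. Spi1 also stands in the macrophage list, nearly all of which was called in every library.

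**Figure D5:**
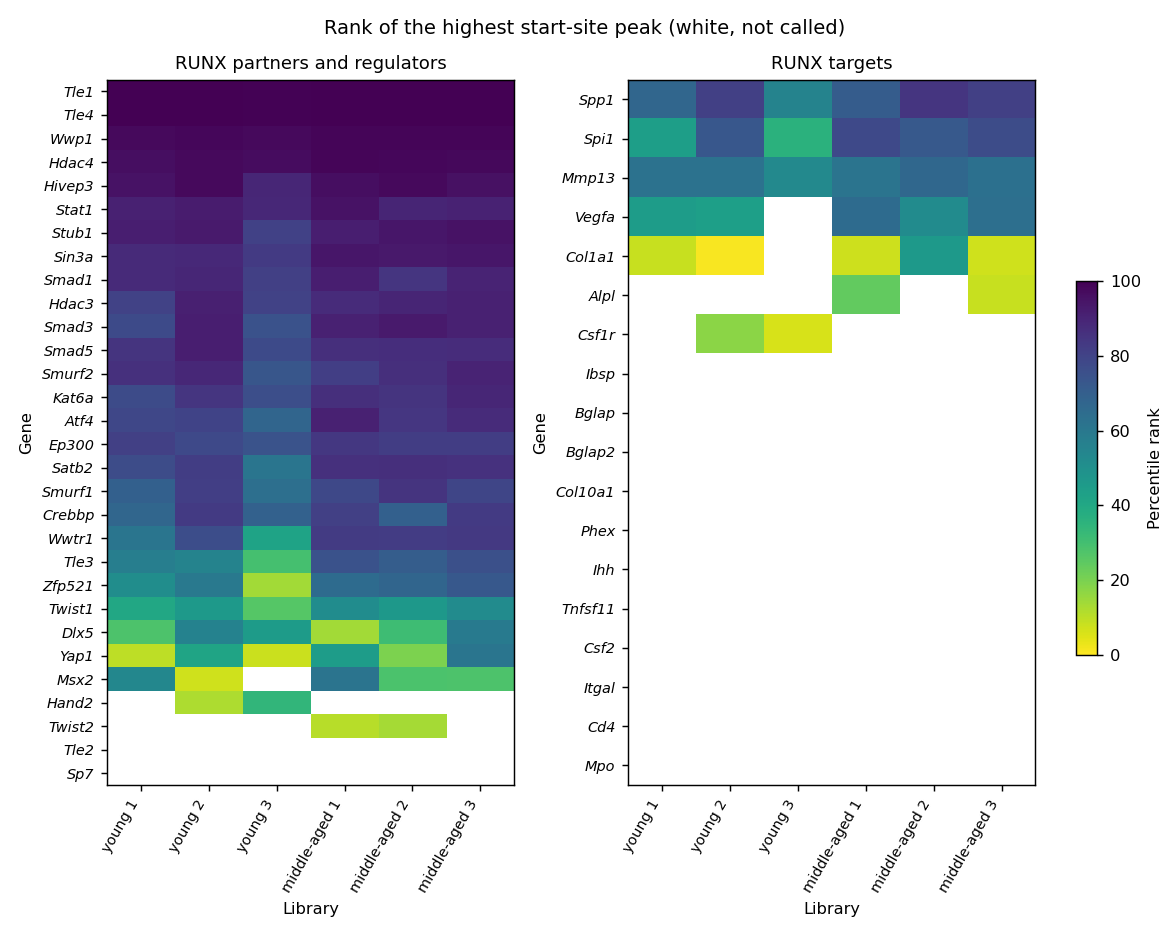
Percentile rank of the highest peak within 1000 bp of a start (colour; white, not called) for 30 RUNX partners and regulators (left) and 18 RUNX targets (right), with genes as rows and the 6 libraries as columns. Most listed partners are called in every library, and 11 listed targets are called in none. Both lists were chosen with earlier results of these data known.

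The profiles of the promoters over the 6 libraries were compared with those of the start regions of 9399 genes, by Pearson r of the centred log2 fold enrichment. Most like Runx1 P1 were Spidr (0.99), Klhl15 (0.99) and Hcfc1 (0.98). For Runx2 P2 they were Esd (0.99), Vasp (0.98) and Tmem167b (0.98), for Runx3 P1 Sqor (1.00), Hacd3 (0.98) and Ddx39b (0.98), and for Cbfb Plekha1 and Brms1l (0.99 each). With 6 points and no more than 0.22 SD in any of the 4 profiles, between 41 and 123 of these genes reached an r of 0.9 with each member. All genes of a library also share its depth and list length.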

How the data were processed

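ATAC-seq was available for 3 young and 3 middle-aged SSPC libraries, grouped by their titles. Per the study's methods, the authors used bcl2fastq, then Bowtie2 against mm10, Sambamba to drop duplicates and MACS to call peaks, here 1 list per library; read shifting and a control are not given in the sources used here. Each deposited list gives a summit fold (ratio over local background, 1 added to both), −log10 p and −log10 q values and a score. Reads were not analysed here. Summit pileups were solved from fold and p and were whole (within 0.001 of −log10 p) for 100% of peaks.

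Coordinates are mm10, 1-based. Starts came from GENCODE, sequences from the RefSeq copy of the same assembly. Exact two-sided permutation tests used 20 assignments; limma 3.58.1 (R 4.3.3; tested on simulated data) used log2 fold with Benjamini-Hochberg adjustment. Python 3.11.15 did the rest.

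The members and gene lists were chosen with earlier results of these data known. Regions were named where they were start clusters, passed limma, were called in one age only or lay within 1000 bp of another gene's start. The 2 highest-ranking constant regions outside start windows of a member were also named. Pathway genes were named by the 3 largest differences per direction, and profile genes by the 3 highest r. A few further regions were named after their values were seen. Equal replicate numbers did not pair the libraries. Alternatives were stricter peaks, equally long lists, other extents, scales, overlaps and left-out libraries. A profile gene and a promoter sequence are not reported here.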

Additional observations from a re-analysis of the deposited data

How the results depend on the processing

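Under every alternative run, 0 of the shared regions of the 4 loci and 0 of the shared pathway starts passed limma (adjusted p under 0.05). Of the 7 start clusters, 5 were called in all libraries kept. Runx2 P1 was uncalled in every setting, but none of the settings run on the start clusters could add a peak, so this was fixed in advance. At an unadjusted p under 0.05 stood 3 shared regions without centring and 0 or 1 under each other setting. With 20 kb upstream, the peak counts of the 4 loci differed by 7.33 (permutation p = 0.2). The only-in-one-age count changed. It was 1, and became 0 with equally long lists and 0 with 20 kb upstream, which leaves the region outside the locus, and ranged from 1 to 3 when 1 library was left out (3 without young 1, 1 without young 3 and 2 without any other). With equally long lists, directions turned for the Runx2 share (0.241 per 10000 peaks), the Runx3 count (−0.667 peaks) and share (−0.241), and the Runx1 P1 rank (−2.61 points). Without centring, log2 differences turned to 0.13 (Runx1 intron, 205 kb), 0.21 (Runx1 P1), 0.15 (Runx1, 41.3 kb upstream), 0.046 (Runx2 intron, 201 kb), 0.13 (Runx2 intron, 151 kb) and 0.19 (Runx2os2 start). On the rank scale the same regions, without the 201 kb one, gave 5.84, 8.88, 7.13, 3.55 and 6.82 points. With summit pileup over background, Runx2 P2 gave −0.036. Leaving out the centring shifts every log2 difference by the same amount, and the median over all regions was 0.21 in place of −0.02. The cause of the other turns was not tested.

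When 1 library was left out, rank differences ranged from 1.76 to 13.1 (Runx1 P1), 6.47 to 30.9 (Runx1 P2), 5.58 to 18.9 (Runx2 P2) and 11.3 to 25.7 (Runx3 P1), and the count difference of the 4 loci from 6.67 to 13.7. Values that changed sign ranged from −0.237 to 0.0764 (Runx2 share), −0.5 to 2 (Runx3 peaks), −0.269 to 0.264 (Runx3 share), −0.0345 to 0.467 (Cbfb share) and −1.86 to 0.941 points (Cbfb rank). The log2 differences ranged from −0.31 to 0.082 (Runx1, 205 kb), −0.064 to 0.36 (Runx1, 150 kb), −0.11 to 0.19 (Runx1 P2), −0.12 to 0.079 (Runx1 P1), −0.27 to 0.13 (Runx1, 41.3 kb upstream), −0.25 to 0.11 (Runx2os2), −0.16 to 0.12 (Runx2 P2) and −0.049 to 0.15 (Supt3 start).

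Replicate numbers did not pair the libraries, with correlations of deviations of 0.0116, 0.0115 and −0.0185. With a replicate block the difference in peaks, 10.7, had an exact permutation p = 0.25, the smallest 3 pairs allow, and the lowest limma adjusted p of the 15 regions was 0.642; the block changed no call. The files give peaks and no reads outside them, so opening below the weakest called summits, 8 to 13 extended reads, could not be detected.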
